A study of Homo sapiens with 3 samples.

Results

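The genes described here encode the nuclear-encoded subunits and assembly factors of respiratory complex I. They were chosen by symbol: NDUF followed by A, AF, B, C, S or V and a number. The rule found 47 of the 19225 genes in the expression table. Of these, 37 are subunit genes, 8 are assembly factor genes (NDUFAF), and 2 were kept apart: NDUFA4L2 and the read-through transcript NDUFC2-KCTD14. The transcript with the most reads over the libraries stood for each gene, since 26 of the 47 had several transcripts, 95 in all. The symbol rule itself uses no measured value.

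RNA was read from 5637 cells, an established human bladder cancer line, in 3 libraries. The siNC library came from wild-type cells given a control siRNA, and the siCDCA3-1 and siCDCA3-2 libraries from wild-type cells given siRNA against CDCA3, a cell cycle gene. All were grown in RPMI 1640 with serum and transfected with Lipofectamine 3000, and their ribosomal RNA was removed before sequencing. Whether the siCDCA3 libraries carry different siRNA sequences or are repeat cultures is not given in the labels, and nothing there says that they came from separate cultures, so a p here reflects only how these libraries vary, which may be technical. The time after transfection was not given either. The series asks which genes lie downstream of CDCA3.

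Complex I, the NADH:ubiquinone oxidoreductase of the inner mitochondrial membrane, takes electrons from NADH through a flavin and a chain of iron-sulfur clusters to ubiquinone, and pumps protons as it does so. Its core subunits carry the catalysis and are conserved from bacteria, its accessory subunits surround and stabilise the core, and assembly factors build the enzyme without staying in it. Part of the core is encoded in mitochondrial DNA, and those genes were not analysed here. In tumour cells the enzyme is best known for regenerating NAD+ and so sustaining oxidative metabolism and aspartate synthesis.

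At the gene level the libraries held 50912733 (siNC), 40420563 (siCDCA3-1) and 62389922 counts (siCDCA3-2). CDCA3 had an RPKM (reads scaled to transcript length and to the library total) of 5.52 (siNC), 0.574 (siCDCA3-1) and 1.40 (siCDCA3-2), so the targeted transcript was lower in both siCDCA3 libraries, as their labels say. Of 14 epithelial and urothelial markers, 9 reached an RPKM of 1 in each library, led by keratins, while the uroplakins UPK1A, UPK1B, UPK2 and UPK3A stayed under it. The summed RPKM of these markers was 2611, 2200 and 1791 in the order siNC, siCDCA3-1, siCDCA3-2, and their part in the results below was not tested. At most 1 of 7 leukocyte, 1 of 6 fibroblast (COL1A1) and 0 of 5 endothelial markers reached an RPKM of 1 in any library, with summed RPKM of 1.46 to 2.72, 2.38 to 8.58 and 0.0503 to 0.137. In bulk RNA, fewer cells of a type and less RNA per cell cannot be told apart.

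Most complex I genes lay within 0.5 of siNC on a log2 scale in both siCDCA3 libraries. The subunit genes together had a summed RPKM of 1154 (siNC), 1038 (siCDCA3-1) and 1142 (siCDCA3-2), which is 89.97% and 99.0% of the siNC sum. The assembly factors summed to 77.0, 62.0 and 100.7, or 80.5% and 131% of siNC, so their sum was lower in one siCDCA3 library and higher in the other. Most of this sum was NDUFAF8, with 46.8, 37.8 and 63.3. No complex I gene passed a test of siCDCA3 against siNC. The order of the subunits by level was nearly the same in every library (Spearman rho across the 37 genes 0.99 for siNC with siCDCA3-1, 0.97 for siNC with siCDCA3-2 and 0.96 between the siCDCA3 libraries, a description of libraries of 1 cell line).

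The test was edgeR's quasi-likelihood fit of the 2 siCDCA3 libraries against the single siNC library over the 10153 genes whose mean RPKM reached 1. The siNC library has no replicate, so the fit takes its spread from the siCDCA3 pair, which leaves 1 residual degree of freedom. To this edgeR adds a prior of 12.0 degrees of freedom drawn from all tested genes. A standard error here is thus mostly shared over genes and is not that gene's own spread. In the whole table edgeR called 0.0295% of the genes (0 higher and 3 lower at an adjusted p of 0.05), DESeq2 0.0985% (0.0197% higher and 0.0788% lower) and limma 0%. Among the 46 complex I genes that passed the filter on low values, 0 were called by any of the 3 tools, and 0 had an unadjusted p under 0.05 in any. The lowest unadjusted p was 0.473 in edgeR (NDUFA7), 0.5001 in DESeq2 and 0.385 in limma. The edgeR log2 fold changes ran from -0.41 for NDUFS4 to 0.50 for NDUFAF4 with standard errors of 0.47 to 0.84, and the edgeR adjusted p was 0.9997 for all 46. With errors of that size, changes of the order seen between the libraries could not be detected, and a missed threshold does not show equal levels.

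Differences from siNC are given on the scale log2(RPKM + 1), which understates the change of low genes. On it the 37 subunits had a median difference of -0.15 in siCDCA3-1 and 0.05 in siCDCA3-2, beside -0.07 and 0.05 over all 10153 tested genes. For the 8 assembly factors the medians were -0.20 and 0.32. Both sets of differences share the siNC library. Relative to the table the subunits thus lay 0.09 lower in siCDCA3-1 and 0.01 higher in siCDCA3-2. The subunits were also less spread than the table: the standard deviation across genes was 0.19 and 0.30, beside 0.40 and 0.51 for all tested genes. Their median RPKM in siNC was 23.6, beside 5.55 over all tested genes, and the part of level in that spread was not tested. Without NDUFA4, which is now assigned to complex IV and which RefSeq lists as COXFA4, the subunit medians were -0.16 and 0.04.

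**Figure D1:**
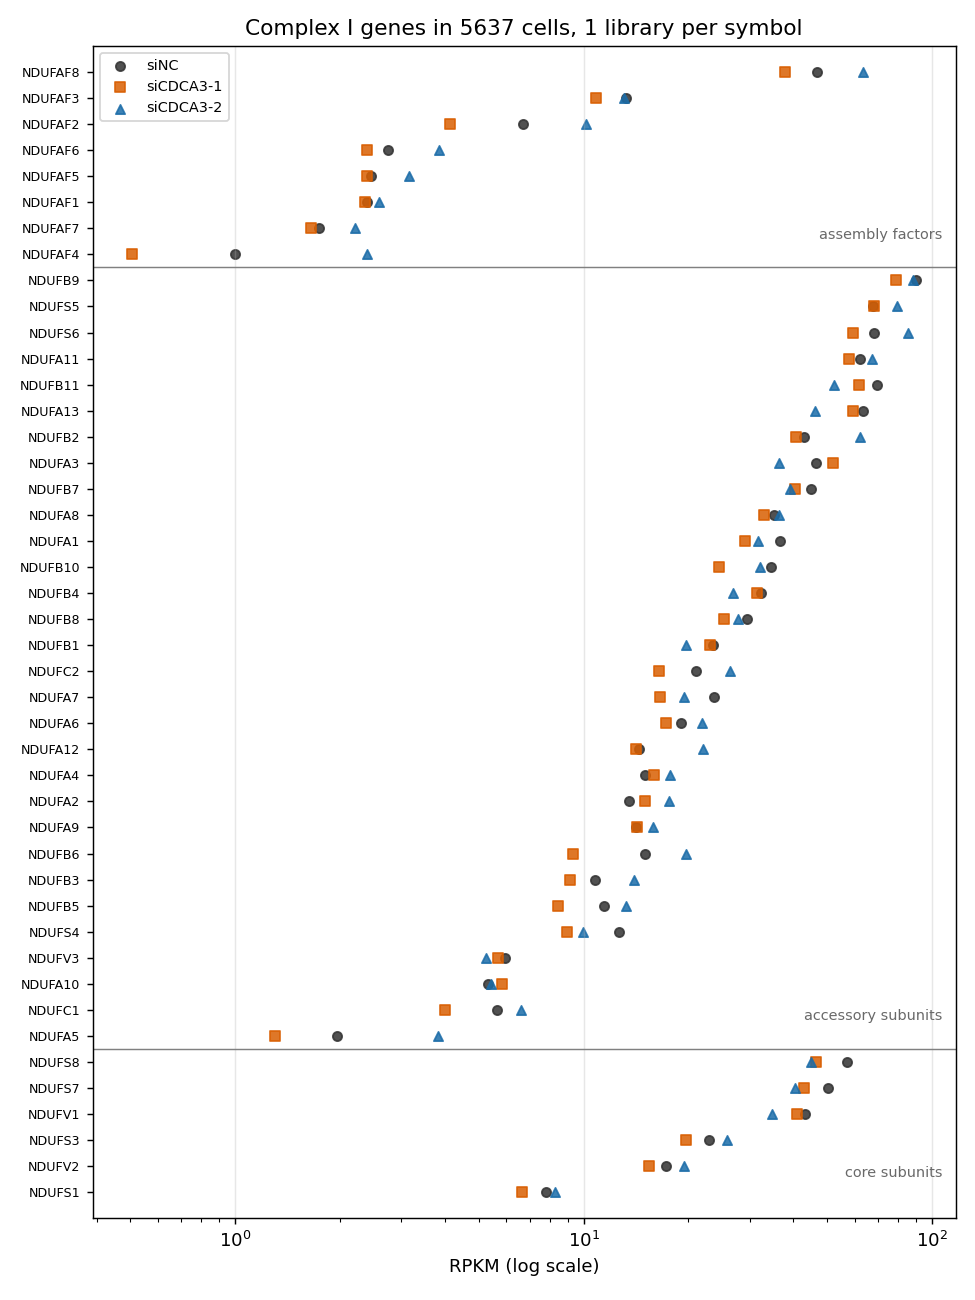
RPKM (log axis) of the 8 assembly factors, 30 accessory subunits and 6 core subunits, with 1 symbol per library and genes ordered by mean level within each class. The symbols of most subunits lie close together, while those of NDUFAF4, NDUFAF2, NDUFA5 and NDUFB6 are spread, with siCDCA3-1 lowest and siCDCA3-2 highest.

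Counting sides of siNC, 30 of the 37 subunits were lower in siCDCA3-1, where 58.6% of all tested genes were lower. In both siCDCA3 libraries 15 subunits were lower (27.8% of all tested genes) and 6 were higher (23.6%). Another 15 were lower in siCDCA3-1 and higher in siCDCA3-2 (30.8%), and NDUFA3 was the reverse (17.8%). All 8 assembly factors were lower in siCDCA3-1, and 7 of them were higher in siCDCA3-2, where 45.6% of all tested genes were lower. These counts depend on the scaling: with TMM scaling, which moved the median of siCDCA3-2 minus siCDCA3-1 over all tested genes from 0.10 to -0.02, 24 subunits and 5 assembly factors were lower in siCDCA3-1, beside 50.1% of all tested genes. The subunits then split into 12 lower in both (26.2% of all tested genes), 6 higher in both (25.9%), 12 lower in siCDCA3-1 only (23.9%) and 7 lower in siCDCA3-2 only (24%).

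Under all 3 scalings run (as deposited, TMM and median of ratios), 11 subunits were lower in both siCDCA3 libraries: NDUFA1, NDUFA7, NDUFA13, NDUFB7, NDUFB8, NDUFB9, NDUFB10, NDUFB11, NDUFS4, NDUFS7 and NDUFS8. That is 11 of 37, beside 24% of all tested genes. Of these, NDUFB8 and NDUFB9 changed side with the transcript. As deposited, their siCDCA3-2 differences reached 0.05 and 0.02 on other transcripts, above siNC. Higher in both under all 3 were NDUFA2, NDUFA4, NDUFA9 and NDUFS5, 4 of 37 beside 21.7%. A further 12 were lower in siCDCA3-1 and higher in siCDCA3-2 under all 3, beside 23.9% of all tested genes, among them NDUFA5, NDUFB6, NDUFC1, NDUFC2 and the core subunits NDUFS1, NDUFS3 and NDUFV2. NDUFA3 alone was the reverse (17.8% of all tested genes). Among the assembly factors, NDUFAF3 was lower in both under all 3, on the transcript used. Read on its other transcripts, as deposited, it was above siNC in siCDCA3-2, by 0.03 to 0.04. NDUFAF2, NDUFAF4, NDUFAF6 and NDUFAF8 were lower in siCDCA3-1 and higher in siCDCA3-2 under all 3.

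Few differences were large. As deposited, 4 of 37 subunits differed from siNC by at least 0.5 in either library: NDUFA5, NDUFA12, NDUFB2 and NDUFB6. So did 2 of 8 assembly factors (NDUFAF2 and NDUFAF4), beside 35.7% of all tested genes. A difference of at least 1 was seen in 0 of these 45 genes, beside 6.33%. In NDUFA5, NDUFB6 and both assembly factors siNC lay between the siCDCA3 libraries. NDUFA12 and NDUFB2 were near siNC in siCDCA3-1 and higher in siCDCA3-2. The subunits that reached 0.5 changed with the scaling. With TMM scaling NDUFB2 fell short in siCDCA3-2 (0.46), and NDUFA13 reached it there on the lower side (-0.51). With median-of-ratios scaling 3 of 37 subunits reached it, beside 34.9% of all tested genes.

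**Figure D2:**
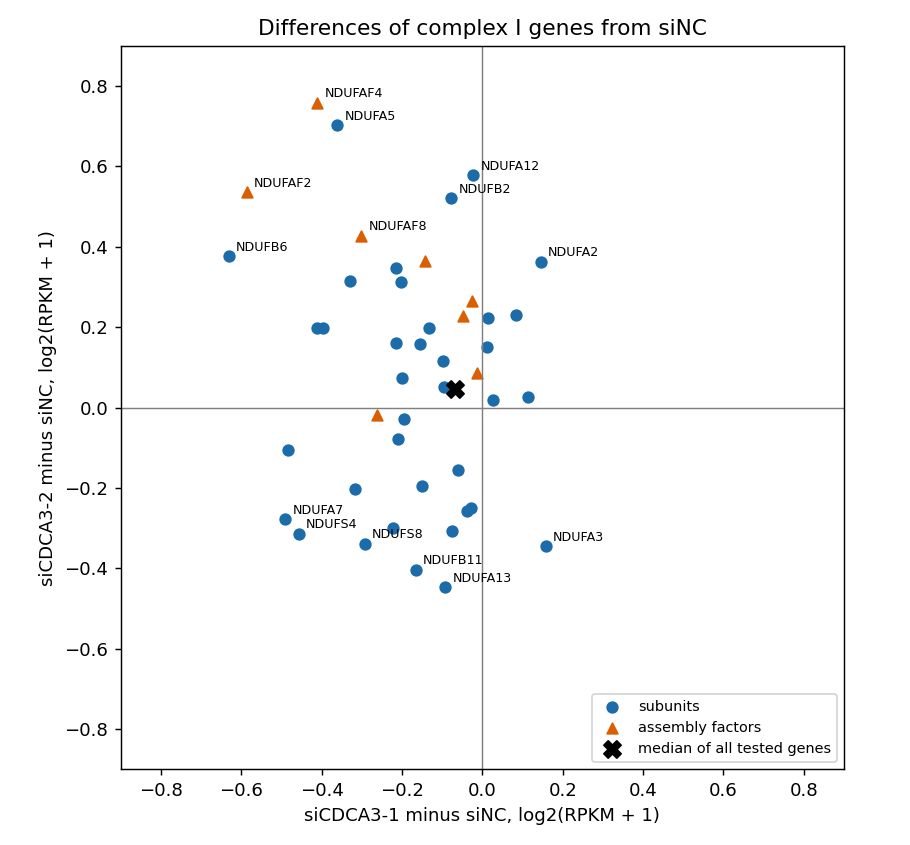
Difference from siNC in siCDCA3-2 (vertical) against that in siCDCA3-1 (horizontal), both as log2(RPKM + 1), for the 37 subunits and 8 assembly factors; the cross is the median of the 10153 tested genes (-0.07 and 0.05). The axes share the siNC library. Most points lie left of the vertical line, and 7 of the 8 assembly factors lie above and to the left of the origin.

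The core subunits of the NADH-binding end of the enzyme are NDUFV1, NDUFV2 and NDUFS1. NDUFV1 (NM_007103.3; GRCh38 chromosome 11, 67606936 to 67612554), which binds NADH and the flavin, had an RPKM of 43.3 (siNC), 41.1 (siCDCA3-1) and 34.8 (siCDCA3-2). Its siCDCA3-2 value was 80.4% of siNC (95% counting interval 78.1% to 82.8%), and its siCDCA3-1 value 94.8% (91.9% to 97.8%). These exact binomial intervals cover counting error only, not the choice of scaling. With TMM scaling NDUFV1 differed from siNC by 0.005 in siCDCA3-1 and by -0.36 in siCDCA3-2. NDUFV2, which holds an iron-sulfur cluster near the flavin, had an RPKM of 17.3, 15.4 and 19.4, and NDUFS1, the largest subunit of the electron chain, 7.80, 6.67 and 8.26. Both were lowest in siCDCA3-1 and highest in siCDCA3-2, while NDUFV1 was lowest in siCDCA3-2.

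The core subunits along the path to ubiquinone include NDUFS3, NDUFS7 and NDUFS8. NDUFS3, among the first subunits to enter assembly, had an RPKM of 23.0 (siNC), 19.6 (siCDCA3-1) and 25.8 (siCDCA3-2), lowest in siCDCA3-1 and highest in siCDCA3-2. NDUFS7 and NDUFS8, the iron-sulfur subunits nearest to ubiquinone, were lower than siNC in both siCDCA3 libraries.

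NDUFS8 (NM_002496.3; GRCh38 chromosome 11, 68030681 to 68036644) had an RPKM of 57.1 (siNC), 46.4 (siCDCA3-1) and 44.96 (siCDCA3-2), or 81.3% (78.1% to 84.7%) and 78.7% (75.9% to 81.6%) of siNC. In edgeR its log2 fold change of -0.31 carried a standard error of 0.48 (adjusted p = 0.9997). NDUFS7 had 50.2, 42.9 and 40.6, or 85.4% and 80.8% of siNC. As deposited, the siCDCA3 libraries lay close to each other and apart from siNC in these 2 genes, yet the difference did not pass. The closeness depends on the scaling. With TMM scaling the siCDCA3-1 and siCDCA3-2 differences from siNC were -0.14 and -0.36 for NDUFS7. For NDUFS8 they were -0.21 and -0.40. Over the 7 core subunits the median difference was -0.20 in siCDCA3-1 and 0.02 in siCDCA3-2.

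The accessory subunits were read in families. By mean RPKM over the 3 libraries, on the transcripts used, the highest were NDUFB9, NDUFS5, NDUFS6 and NDUFA11. NDUFB9, of the distal membrane arm, had an RPKM of 90.2 (siNC), 78.6 (siCDCA3-1) and 88.4 (siCDCA3-2). NDUFS6, a zinc-binding subunit at the base of the NADH-binding end, had 68.3, 59.2 and 85.2, and NDUFS5, an intermembrane-space subunit, 67.7, 68.3 and 79.2. NDUFA11, a membrane-arm subunit, had 62.0, 57.9 and 67.2. This order depends on the transcript read: NDUFB4 had 32.3 in siNC on the transcript used and 82.3 on its other one. The lowest accessory level was that of NDUFA5, 1.96 in siNC, so the accessory genes spanned a wide range of RPKM.

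The 11 NDUFB genes, whose products form the distal membrane arm, had a median difference of -0.20 in siCDCA3-1 and -0.08 in siCDCA3-2. All 11 were lower than siNC in siCDCA3-1 as deposited, but 8 were with TMM and 9 with median-of-ratios scaling, beside 58.6%, 50.1% and 50.3% of all tested genes. NDUFB10 had an RPKM of 34.6 (siNC), 24.5 (siCDCA3-1) and 32.1 (siCDCA3-2), so its low value was in siCDCA3-1. NDUFB6 had 15.0, 9.31 and 19.7, the lowest siCDCA3-1 value relative to siNC of any subunit at 62.2% (57.2% to 67.6%) and a siCDCA3-2 value of 132%. NDUFB2 had 42.9, 40.6 and 62.0, and was apart from siNC in siCDCA3-2 (145%).

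The 13 accessory NDUFA genes had medians of -0.09 and 0.11. NDUFA7 (NM_005001.4; GRCh38 chromosome 19, 8308595 to 8321375), of the peripheral arm, had an RPKM of 23.7 (siNC), 16.6 (siCDCA3-1) and 19.4 (siCDCA3-2), or 70.0% (64.6% to 75.8%) and 81.7% (76.4% to 87.5%) of siNC. NDUFA2, a thioredoxin-like subunit, was the opposite, with 13.5, 15.0 and 17.6, or 111% and 131% of siNC. NDUFA4 was also higher in both, with 15.0, 15.9 and 17.8, as was NDUFA10, with 5.31, 5.82 and 5.43, though under TMM scaling NDUFA10 was below siNC in siCDCA3-2, at -0.02. NDUFA12, which takes the place that the assembly factor NDUFAF2 holds during assembly, had 14.4, 14.2 and 22.0.

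Of the 3 accessory NDUFS genes, NDUFS4 (NM_002495.3; GRCh38 chromosome 5, 53560639 to 53683338), which stabilises the NADH-binding end and is often mutated in Leigh syndrome, was lower in both siCDCA3 libraries. It had an RPKM of 12.7 (siNC), 8.95 (siCDCA3-1) and 9.98 (siCDCA3-2), or 70.7% (64.1% to 78.1%) and 78.9% (72.5% to 85.8%) of siNC. This was the lowest edgeR log2 fold change of the fitted complex I genes, -0.41, whose standard error was 0.58 (edgeR adjusted p = 0.9997). NDUFC1 and NDUFC2, membrane-arm subunits, were lower in siCDCA3-1 and higher in siCDCA3-2: NDUFC2 had an RPKM of 20.98 (siNC), 16.5 (siCDCA3-1) and 26.3 (siCDCA3-2). NDUFC1 had 5.64, 3.995 and 6.61. NDUFV3, of the NADH-binding end, had 5.95, 5.66 and 5.24.

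Assembly factors act in order. NDUFAF3 and NDUFAF4 bind each other and help build the ubiquinone-binding part early on, NDUFAF5 hydroxylates and NDUFAF7 methylates core subunits there, and NDUFAF8 stabilises NDUFAF5. NDUFAF6 also acts early, NDUFAF1 belongs to the complex that builds the membrane arm, and NDUFAF2 is bound late. NDUFAF8 had the highest level, with an RPKM of 46.8 (siNC), 37.8 (siCDCA3-1) and 63.3 (siCDCA3-2). NDUFAF3 had 13.2, 10.9 and 13.0, the single assembly factor below siNC in siCDCA3-2 on the transcripts used. Its siCDCA3-2 value was 98.7% of siNC, with a counting interval that spans siNC (93.4% to 104%). The remaining 6 lay at or under 6.72 in siNC, so most of these factors were read at lower levels than the subunits.

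NDUFAF4 (NM_014165.3; GRCh38 chromosome 6, 96889315 to 96897891) had an RPKM of 1.00 (siNC), 0.506 (siCDCA3-1) and 2.39 (siCDCA3-2), from 315, 127 and 924 counts. That is 50.5% (40.8% to 62.3%) and 238% (209% to 272%) of siNC. NDUFAF2 (NM_174889.4; GRCh38 chromosome 5, 60945205 to 61153026) had 6.72, 4.14 and 10.2, or 61.6% (53.6% to 70.7%) and 152% (138% to 167%). In both genes siNC lay between the siCDCA3 libraries, well beyond counting error, and the log2 fold changes of 0.50 (standard error 0.84) and 0.08 (standard error 0.69) did not pass (edgeR adjusted p = 0.9997).

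NDUFAF6 had an RPKM of 2.75 (siNC), 2.40 (siCDCA3-1) and 3.83 (siCDCA3-2), and NDUFAF7 had 1.74, 1.65 and 2.21. NDUFAF5 had 2.45, 2.40 and 3.15, and NDUFAF1 2.38, 2.35 and 2.59. All 4 were below siNC in siCDCA3-1 by 0.14 or less, and NDUFAF1, NDUFAF5 and NDUFAF7 were above siNC in siCDCA3-1 under TMM scaling. In siCDCA3-2 the same 7 assembly factors were above siNC under all 3 scalings, beside 49.8% of all tested genes.

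The subunits were spread more between the siCDCA3 libraries than between either and siNC, with a standard deviation across genes of 0.35 beside 0.19 and 0.30. All tested genes had the same order with larger values, 0.60 beside 0.40 and 0.51. Between the siCDCA3 libraries a difference of at least 0.5 was seen in 10 of 37 subunits and 4 of 8 assembly factors, beside 34.9% of all tested genes. Under TMM scaling those counts were 4 and 3, beside 34%. The largest ratios of siCDCA3-2 to siCDCA3-1 were 4.72-fold for NDUFAF4, 2.93-fold for NDUFA5 and 2.46-fold for NDUFAF2. NDUFA5 (NM_005000.4; GRCh38 chromosome 7, 123536997 to 123601651), a subunit of the ubiquinone-binding part, had an RPKM of 1.96 (siNC), 1.30 (siCDCA3-1) and 3.81 (siCDCA3-2).

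On the other side stood 3 subunits of the membrane arm. NDUFA3 (NM_004542.3; GRCh38 chromosome 19, 54102855 to 54107568) had an RPKM of 46.6 (siNC), 52.1 (siCDCA3-1) and 36.5 (siCDCA3-2). NDUFA13 (NM_015965.6; GRCh38 chromosome 19, 19516225 to 19528198), also known as GRIM-19, had 63.3, 59.3 and 46.2, and NDUFB11 (NM_019056.6; GRCh38 chromosome X, 47142216 to 47145491) had 69.6, 61.9 and 52.4. All 3 were lowest in siCDCA3-2, at 78.3%, 72.9% and 75.3% of siNC.

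Base composition separates these 2 sets of 3 genes. The first 150 coding bases of each are shown 5′ to 3′ with every G and C in capitals, because the pattern is visible in the letters; they were read from GENCODE v29 transcripts on GRCh38 that match the deposited RefSeq accessions. The genes highest in siCDCA3-2 relative to siCDCA3-1 were:
NDUFAF4: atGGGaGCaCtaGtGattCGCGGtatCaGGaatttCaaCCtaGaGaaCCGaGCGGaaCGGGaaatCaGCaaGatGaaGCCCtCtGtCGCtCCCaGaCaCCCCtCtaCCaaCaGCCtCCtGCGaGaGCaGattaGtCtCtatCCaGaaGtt
NDUFA5: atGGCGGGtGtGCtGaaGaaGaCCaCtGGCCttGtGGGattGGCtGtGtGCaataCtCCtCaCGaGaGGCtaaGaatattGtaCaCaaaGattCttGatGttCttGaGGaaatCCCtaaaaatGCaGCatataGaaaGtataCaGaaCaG
NDUFAF2: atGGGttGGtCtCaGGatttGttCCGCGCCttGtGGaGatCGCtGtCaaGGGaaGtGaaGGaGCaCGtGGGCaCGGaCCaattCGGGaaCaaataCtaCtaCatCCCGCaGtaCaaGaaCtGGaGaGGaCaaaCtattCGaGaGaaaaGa
The genes highest in siCDCA3-1 relative to siCDCA3-2 were:
NDUFA3: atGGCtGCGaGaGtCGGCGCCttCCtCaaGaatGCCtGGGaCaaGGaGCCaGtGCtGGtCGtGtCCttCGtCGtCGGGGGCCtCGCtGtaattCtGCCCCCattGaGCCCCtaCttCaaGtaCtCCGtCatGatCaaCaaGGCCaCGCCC
NDUFA13: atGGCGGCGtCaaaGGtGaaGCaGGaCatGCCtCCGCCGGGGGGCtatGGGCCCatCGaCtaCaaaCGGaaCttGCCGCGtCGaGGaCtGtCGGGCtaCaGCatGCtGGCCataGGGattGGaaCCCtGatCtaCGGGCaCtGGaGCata
NDUFB11: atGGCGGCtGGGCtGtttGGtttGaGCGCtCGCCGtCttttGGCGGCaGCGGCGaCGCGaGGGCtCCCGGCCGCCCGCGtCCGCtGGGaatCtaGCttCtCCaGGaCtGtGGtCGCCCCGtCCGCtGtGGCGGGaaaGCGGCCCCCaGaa
G and C made up 52.0%, 43.3% and 50% of these bases in the first set and 60.0%, 60.7% and 70.0% in the second. Over the whole transcripts the GC content was 36.3%, 36.4% and 45.8% in the first set and 56.4%, 61.6% and 57.8% in the second. All 3 transcripts of the first set thus held less G and C than all 3 of the second. These genes were picked as extremes of siCDCA3-2 minus siCDCA3-1. Across 9831 tested genes that difference had a Pearson r of -0.35 with GC content, so the contrast is not particular to them.

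Base composition was then read over all subunits and over the table. Transcript GC content was known for 36 of 37 subunits and all 8 assembly factors (NDUFA6 was not matched). Across the 36 subunits the siCDCA3-2 difference from siNC had a Pearson r of -0.57 with GC content (Spearman rho -0.58), and across 9831 tested genes r was -0.33. For siCDCA3-1 the values were 0.09 and 0.09. These are descriptions across genes that share libraries, and genes are not independent replicates. The part of GC content in the differences was not tested.

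In 3 classes of GC content, chosen after the data were seen, the median of siCDCA3-2 minus siCDCA3-1 over all tested genes was 0.37 under 45%, 0.04 from 45% to 55% and -0.11 at 55% or more. The subunits had 0.27 (9 genes), 0.21 (15 genes) and -0.05 (12 genes), so they followed the order of the table. The assembly factors did not: their medians were 0.40 (4 genes), 0.61 (2 genes) and 0.49 (2 genes), and all 8 were higher in siCDCA3-2 than in siCDCA3-1, beside 57.8% of all tested genes. Under TMM scaling 7 of the 8 were, beside 48.7%, and NDUFAF1 was level at -0.003. NDUFAF8 and NDUFAF3, the GC-rich assembly factors at 60.2% and 64.0%, were higher by 0.73 and 0.24. Whether the assembly factors differ from other genes of like composition was not tested.

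**Figure D3:**
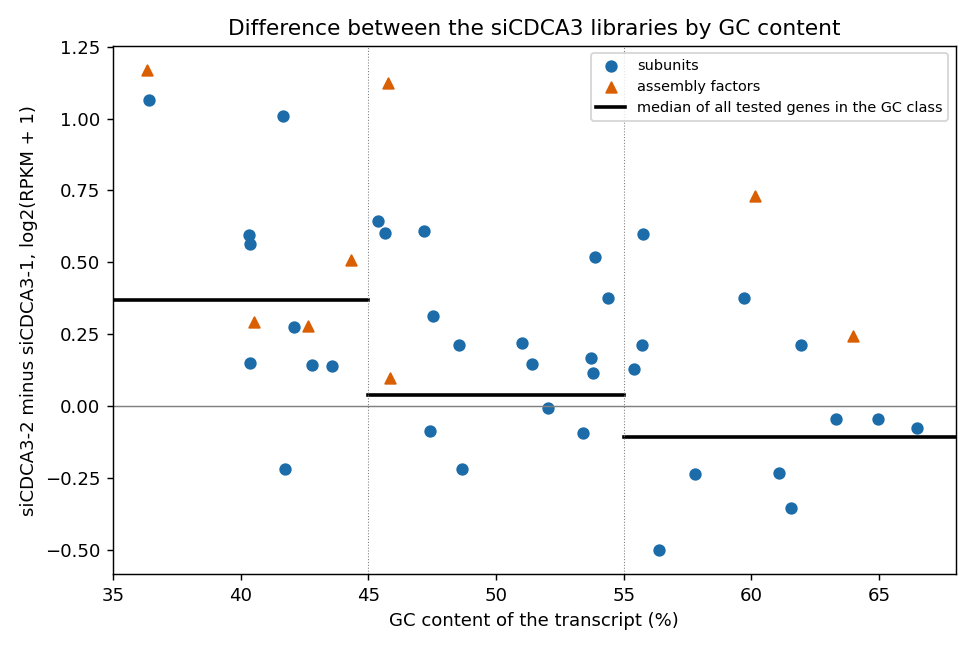
Difference between the siCDCA3 libraries, siCDCA3-2 minus siCDCA3-1 as log2(RPKM + 1), against transcript GC content in percent for 36 subunits and 8 assembly factors. Black lines are the medians of all tested genes in each class (0.37, 0.04 and -0.11); the assembly factors lie above 0 in every class, while 7 of the 12 subunits at 55% or more lie below it.

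The genomic positions are scattered, on 22 chromosomes. Chromosome 19 holds 6 subunit genes, whose medians were -0.12 in siCDCA3-1 and -0.29 in siCDCA3-2, beside -0.07 and 0.05 over all tested genes. Their transcripts had a median GC content of 61.8%. All tested genes at 55% or more had medians of -0.03 and -0.14, and the subunits in that class -0.16 and -0.29. The part of position in these values was not tested. The 4 on chromosome 11 (NDUFV1, NDUFS8, NDUFS3 and NDUFC2) had -0.25 and -0.07.

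NDUFA4L2, which RefSeq lists as COXFA4L2 and which is known as a hypoxia-induced relative of NDUFA4, was read at a very low level. As a percentage of siNC it was the lowest complex I-named gene in both siCDCA3 libraries. On log2(RPKM + 1) its differences were -0.456 and -0.462, and NDUFB6 lay further below siNC in siCDCA3-1 (-0.63). NDUFA4L2 had an RPKM of 0.471 (siNC), 0.0727 (siCDCA3-1) and 0.0681 (siCDCA3-2), from 73, 9 and 13 counts. That is 15.4% (6.79% to 31.0%) and 14.5% (7.35% to 26.3%) of siNC. It did not reach the filter on low values; in the edgeR fit with no filter its log2 fold change of -2.78 had a standard error of 1.13, an unadjusted p of 0.0141 and an adjusted p of 0.9999. Its end lies on 33 bases shared with SHMT2, which encodes the mitochondrial serine hydroxymethyltransferase (GRCh38 chromosome 12, 57234903 to 57234935). SHMT2 had an RPKM of 69.4, 10.2 and 24.5, so the neighbour was also low in both siCDCA3 libraries. The strand setting of the counting was not given, reads of the 2 genes cannot be told apart there, and the part of SHMT2 reads in the NDUFA4L2 counts was not tested.

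NDUFC2-KCTD14 joins NDUFC2 to the next gene. It had 6285 counts in siNC, 4128 in siCDCA3-1 and 9255 in siCDCA3-2, nearly those of NDUFC2 (6775, 4253 and 10475), and the 2 symbols share reads. KCTD14 had an RPKM of 2.85, 3.34 and 4.14, below the 19.8, 16.3 and 23.7 of the joined transcript.

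Other members carry similar uncertainty. Named pseudogenes exist for 20 of the 47, 68 in all, with 12 each for NDUFA5 and NDUFB4 and 4 for NDUFAF4, and how shared reads were counted was not stated. A coding gene overlaps 14 of the 47, such as TMCO6 at NDUFA2, TFPT at NDUFA3, RBM10 at NDUFB11 and DALRD3 at NDUFAF3. Among the 26 genes with several transcripts, 21 kept the same signs in both siCDCA3 libraries whichever transcript was read, and in 17 the difference moved by less than 0.1. A sign changed with the transcript in NDUFA10, NDUFAF3, NDUFAF5, NDUFB8 and NDUFB9. The widest range was that of NDUFB6, whose siCDCA3-2 difference was 0.03 to 0.38.

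The other genes of the pathway lay in the same range. Of 13 other complex I genes outside the symbol rule, 0 were called by edgeR, with medians of -0.11 in siCDCA3-1 and 0.05 in siCDCA3-2. They include NDUFAB1, the mitochondrial acyl carrier protein that is also a complex I subunit, with an RPKM of 31.6, 26.1 and 32.8. NUBPL, which delivers iron-sulfur clusters to complex I, had 1.22, 0.562 and 1.30, a low value in siCDCA3-1 alone. COA1, an assembly protein of the respiratory chain, had 18.3, 11.6 and 15.7, lower than siNC in both.

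Of the genes of complexes II to V, 0 were called. Median differences in siCDCA3-1 and siCDCA3-2 were -0.14 and 0.07 for complex II (8 genes), -0.09 and 0.01 for complex III (14 genes), -0.11 and -0.002 for complex IV (31 genes), and -0.12 and 0.14 for complex V (18 genes). The complex I subunits, at -0.15 and 0.05, lay below these 4 values in siCDCA3-1 and among them in siCDCA3-2. The assembly factors, at -0.20 and 0.32, lay below each of them in siCDCA3-1 and above each in siCDCA3-2. These differences between lists were not tested. The 13 tested genes of iron-sulfur cluster synthesis, which supplies the core subunits, had -0.26 and 0.02, and 12 regulators of mitochondrial gene expression had -0.15 and 0.12. Among the latter ESRRA, a nuclear receptor that drives respiratory genes, had an RPKM of 23.4, 18.96 and 18.3.

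**Figure D4:**
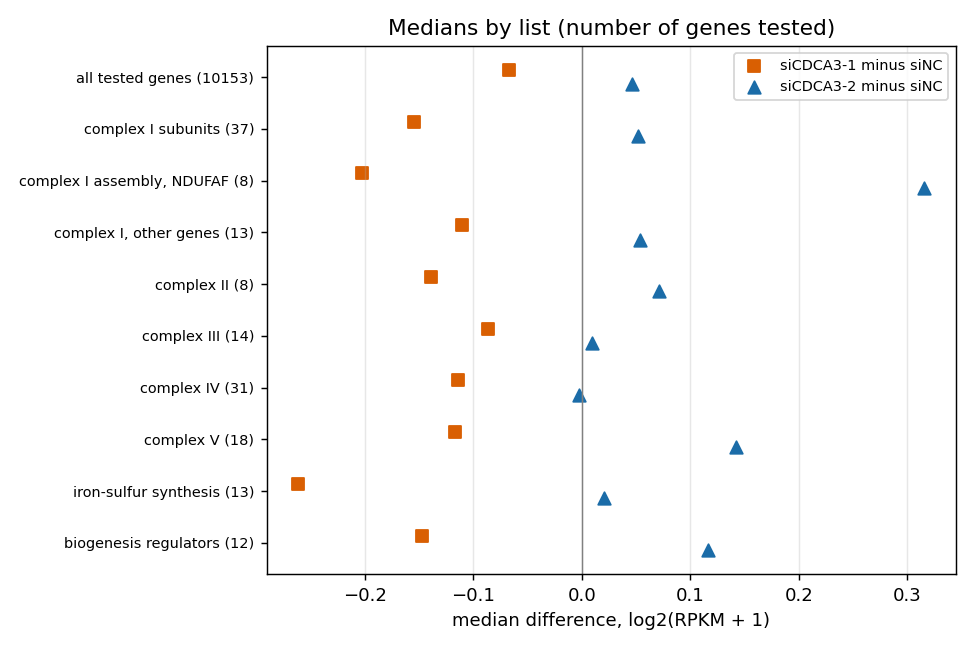
Median difference from siNC as log2(RPKM + 1) for all tested genes, the complex I subunits and assembly factors, and the other lists, with the number of genes tested in brackets; squares are siCDCA3-1 and triangles siCDCA3-2. Every siCDCA3-1 median lies below 0, and the siCDCA3-2 median of the assembly factors (0.32) is the furthest right.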

How the data were processed

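Counts were deposited by the authors as whole numbers per RefSeq transcript and library, per the file headers, beside RPKM, which the authors scaled by transcript length and library total. Trimmomatic 0.36, FastQC, HISAT2 and HTSeq, and the builds mm10 and hg38, are named in the submitters' processing notes without roles; 98.6% of accessions matched RefSeq's human GRCh38.p14 genes. Of 103 symbols turned into dates, 102 were restored. The table held 45006 transcripts of 19225 genes, and the transcript with the most counts stood for each gene. The complex I genes and all lists were chosen with earlier results of these data known.

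edgeR 4.0.16 (R 4.3.3) was run on the counts with TMM scaling and a two-sided quasi-likelihood test of siCDCA3 against siNC, adjusted by Benjamini-Hochberg over 10153 genes whose mean RPKM reached 1, after a check on simulated counts. Its common dispersion was 0.126; a standard error is the size of the log2 fold change divided by the root of F. DESeq2 1.42.0 and limma 3.58.1 were alternatives, with other pseudocounts, filters, scalings and transcripts. Single-library differences had no test. The scalings for counts of sides, the classes of GC content and the ranges over transcripts were added after the data were seen. Named genes were the core subunits (the values of 1 are not reported here, though it stays in the counts and medians), those with the highest levels, those furthest above or below siNC in both siCDCA3 libraries, those with the largest difference between the siCDCA3 libraries, and NDUFA4, NDUFA4L2 and NDUFC2-KCTD14; NDUFB2, NDUFB6, NDUFB10, NDUFA12, NDUFC1, NDUFC2, NDUFV3 and the other assembly factors were added to complete the families, after their values were seen.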

Additional observations from a re-analysis of the deposited data

How the results depend on the processing

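No complex I subunit or assembly factor was called under any alternative run: DESeq2, limma, median-of-ratios scaling, no filter, a mean RPKM of at least 5 and the longest transcript. Over all genes the 3 edgeR calls became 10 with DESeq2, 0 with limma, 22 with no filter and 0 at a mean RPKM of at least 5; the cause was not tested. The subunit median in siCDCA3-2, 0.05, was -0.0062 with TMM scaling and 0.0041 to 0.074 under the others, so its side of siNC is not settled. The subunit median in siCDCA3-1 ran from -0.16 to -0.08, and those of the assembly factors from -0.30 to -0.14 and from 0.27 to 0.43, keeping their direction. For the 24 named genes with a fitted fold change, DESeq2, median-of-ratios scaling and the longest transcript kept the direction and the side of the threshold in 72 of 72 cases. Leaving out either siCDCA3 library leaves no residual degrees of freedom, so calls could not be recomputed. The fold changes against siNC of the siCDCA3 libraries taken 1 at a time had opposite signs for 13 of those 24. With TMM-scaled RPKM, 4866 of all 10153 tested genes had opposite signs. The 24 were named partly for these differences, so their count does not describe complex I genes at large. No paired analysis was possible because siNC is a single library with no number in its label, so the groups share fewer than 2 replicate numbers. Counts behind the fitted subunits and assembly factors ran from 127 to 10475. Counting error was small beside the spread between the siCDCA3 libraries for genes far apart there, such as NDUFAF4 and NDUFAF2. It was not for others. The counting intervals of siCDCA3-1 and siCDCA3-2 overlapped for NDUFS8 (78.1% to 84.7% and 75.9% to 81.6% of siNC) and NDUFAF1 (85.8% to 114% and 96.1% to 123%). The lack of a siNC replicate is a limit of every test here.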

Other observations

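The genes of the respiratory chain lists named here are among the 2 with the largest mean difference from siNC in each list, and edgeR called 0 of them. SDHAF4, an assembly factor of complex II, had an RPKM of 3.45 (siNC), 1.94 (siCDCA3-1) and 1.61 (siCDCA3-2), while SDHC, a membrane anchor of the same complex, had 10.5, 12.4 and 13.7. UQCC3, which helps assemble complex III, had 8.73, 5.55 and 6.80. In complex IV, COX6A1 had 199, 164 and 128 and COX8A had 155, 117 and 108, and 15 of 31 genes of that list were lower than siNC in both libraries, beside 27.8% of all tested genes.

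In complex V the members lay on both sides: ATP5H had an RPKM of 96.9 (siNC), 74.0 (siCDCA3-1) and 60.5 (siCDCA3-2), and ATP5G1 had 46.3, 50.01 and 76.7. In iron-sulfur cluster synthesis, FDXR, the reductase that supplies electrons, had 14.4, 10.4 and 8.88, and GLRX5, which passes clusters on, had 13.7, 16.0 and 27.6. POLRMT, the mitochondrial RNA polymerase, had 10.6, 11.5 and 15.9. Of the 9 tested epithelial and urothelial markers, 4 were lower than siNC in siCDCA3-1 and 7 in siCDCA3-2, with 3 lower in both. The shares of all tested genes were 58.6%, 45.6% and 27.8%. KRT17 had the largest mean difference from siNC of these markers, -1.33 on log2(RPKM + 1). KRT5 had an RPKM of 421, 218 and 200, whereas KRT7, chosen after its values were seen, had 341, 356 and 377.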
